A study of Mus musculus with 40 samples.

Results

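The report describes 10 genes, Wnk1, Rps6ka3, Cdc42bpa and Pak3, which encode protein kinases, Pik3r1, Sirpa and Crmp1, which encode other signalling proteins, and Ap1g1, Wac and Cnot6, whose products act in vesicle sorting, histone ubiquitylation and messenger RNA decay, through the share of each transcript in its gene. They hold 24 of the 6831 RefSeq transcripts in the deposited table, and they are 10 of the 718 gene symbols, out of 5849, that have at least 2 transcripts there. The genes were selected on the read counts of single transcripts, which had shown large differences between groups in these libraries. One transcript each of Wnk1, Rps6ka3, Cdc42bpa, Sirpa and Pak3 was taken from saline HF-HI against saline sham, and a transcript of Crmp1 was taken from the HF-HI groups compared between memantine and saline. Those comparisons are therefore given for these genes as descriptions with no test. The comparison that put Pik3r1, Ap1g1, Wac and Cnot6 on the list is not known, so they are described with no test throughout.

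The study asked how high-frequency head impact (HF-HI), a schedule of repeated mild impacts to the closed head, changes gene expression in the mouse cortex, and whether memantine, which blocks glutamate receptors of the NMDA type, alters that response. All mice were C57BL/6 males (C57Bl/6J in the study's methods), 12 weeks old by the labels, and each received memantine or saline by intraperitoneal injection 1 h before every daily session of HF-HI or of a sham procedure. Total RNA of dissected cortex was sequenced 24 h after injury. The 4 groups of 10 libraries are called here by drug and procedure, as memantine HF-HI, memantine sham, saline HF-HI and saline sham. The series design text gives another number of samples per group, and the labels and the table were followed here. The libraries held between 13322404 and 17529644 counted reads. Markers of neurons (6 of 6 listed genes in the table), astrocytes (7 of 7) and oligodendrocytes (7 of 7) were present, and the summed level of each list overlapped between all groups, as did the lists for microglia (5 of 8), endothelial cells (2 of 5), striatum (6 of 8) and thalamus (2 of 4). The single choroid plexus marker in the table, Ttr, ran from 74.5 to 22031 normalised counts and also overlapped between groups, the single hippocampal marker, Wfs1, from 714 to 1527, and none of 4 blood genes was in the table. The mean of the striatum list was lowest in saline HF-HI, at 23571 normalised counts, against 26284 in memantine HF-HI, 27108 in memantine sham and 27643 in saline sham, and its part in the shares below was not tested. Bulk tissue cannot tell fewer cells of a type from less RNA per cell.

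Many genes give rise to several messenger RNAs, by starting transcription at different promoters or by including different exons, and the resulting proteins can differ in their regulatory domains, partners or location. Protein kinases such as the WNK, ribosomal S6 and p21-activated families pass signals from receptors and small GTPases to ion transporters, transcription factors and the actin cytoskeleton, and in cortical neurons they act on excitability and on the shape of dendritic spines. When one transcript of such a gene replaces another while the gene's total stays level, the change is called an isoform exchange. The share of a transcript is given here as a percentage of the gene sum. The gene sum is the summed normalised read count of the transcripts of that gene that are in the table. Counts were not corrected here for transcript length, so a share is one of reads and not of molecules. The gene sum is not a full gene total where other transcripts were left out of the table, and this applied most to Cdc42bpa, with 3 of 13 curated RefSeq transcripts present, and to Sirpa, with 3 of 8.

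Cdc42bpa (chr1:179960079-180165606, GRCm38) encodes MRCK alpha, a kinase that binds the GTPase CDC42 and acts on actin and myosin. The reads assigned to its 3 transcripts changed places in some of the libraries, against a level gene sum. The sum was 11475 ± 274 normalised counts in memantine HF-HI, 11456 ± 306 in memantine sham, 11514 ± 329 in saline HF-HI and 11336 ± 377 in saline sham (means with SD over 10 libraries, as for all values written with ± below). Its coefficient of variation inside groups, 2.83%, ranked 700 of 718 genes, so few genes with several transcripts had a steadier sum.

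The 40 libraries fell into 3 states that differed in which Cdc42bpa transcript held the most reads. In 27 libraries NM_001346805 led with 47.5% to 68.0% of the sum, beside 11.6% to 20.6% for NM_001033285. In 6 libraries NM_001346804 led with 63.7% to 81.8%, and NM_001033285 was at 1.42% to 2.21%. In the other 7 libraries NM_001033285 led with 45.7% to 84.9%. All 10 saline sham libraries were in the first state. Saline HF-HI held 6 libraries in the first state and 4, replicates 2, 7, 8 and 10, in the state led by NM_001346804. Memantine sham held 4 in the first state, 1 led by NM_001346804 (replicate 5) and 5 led by NM_001033285, and memantine HF-HI held 7, 1 (replicate 2) and 2. The state led by NM_001033285 was thus seen in memantine libraries, 7 of 20, and in none of the 20 saline libraries, a count that was read off after the shares were seen and was not tested.

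**Figure D1:**
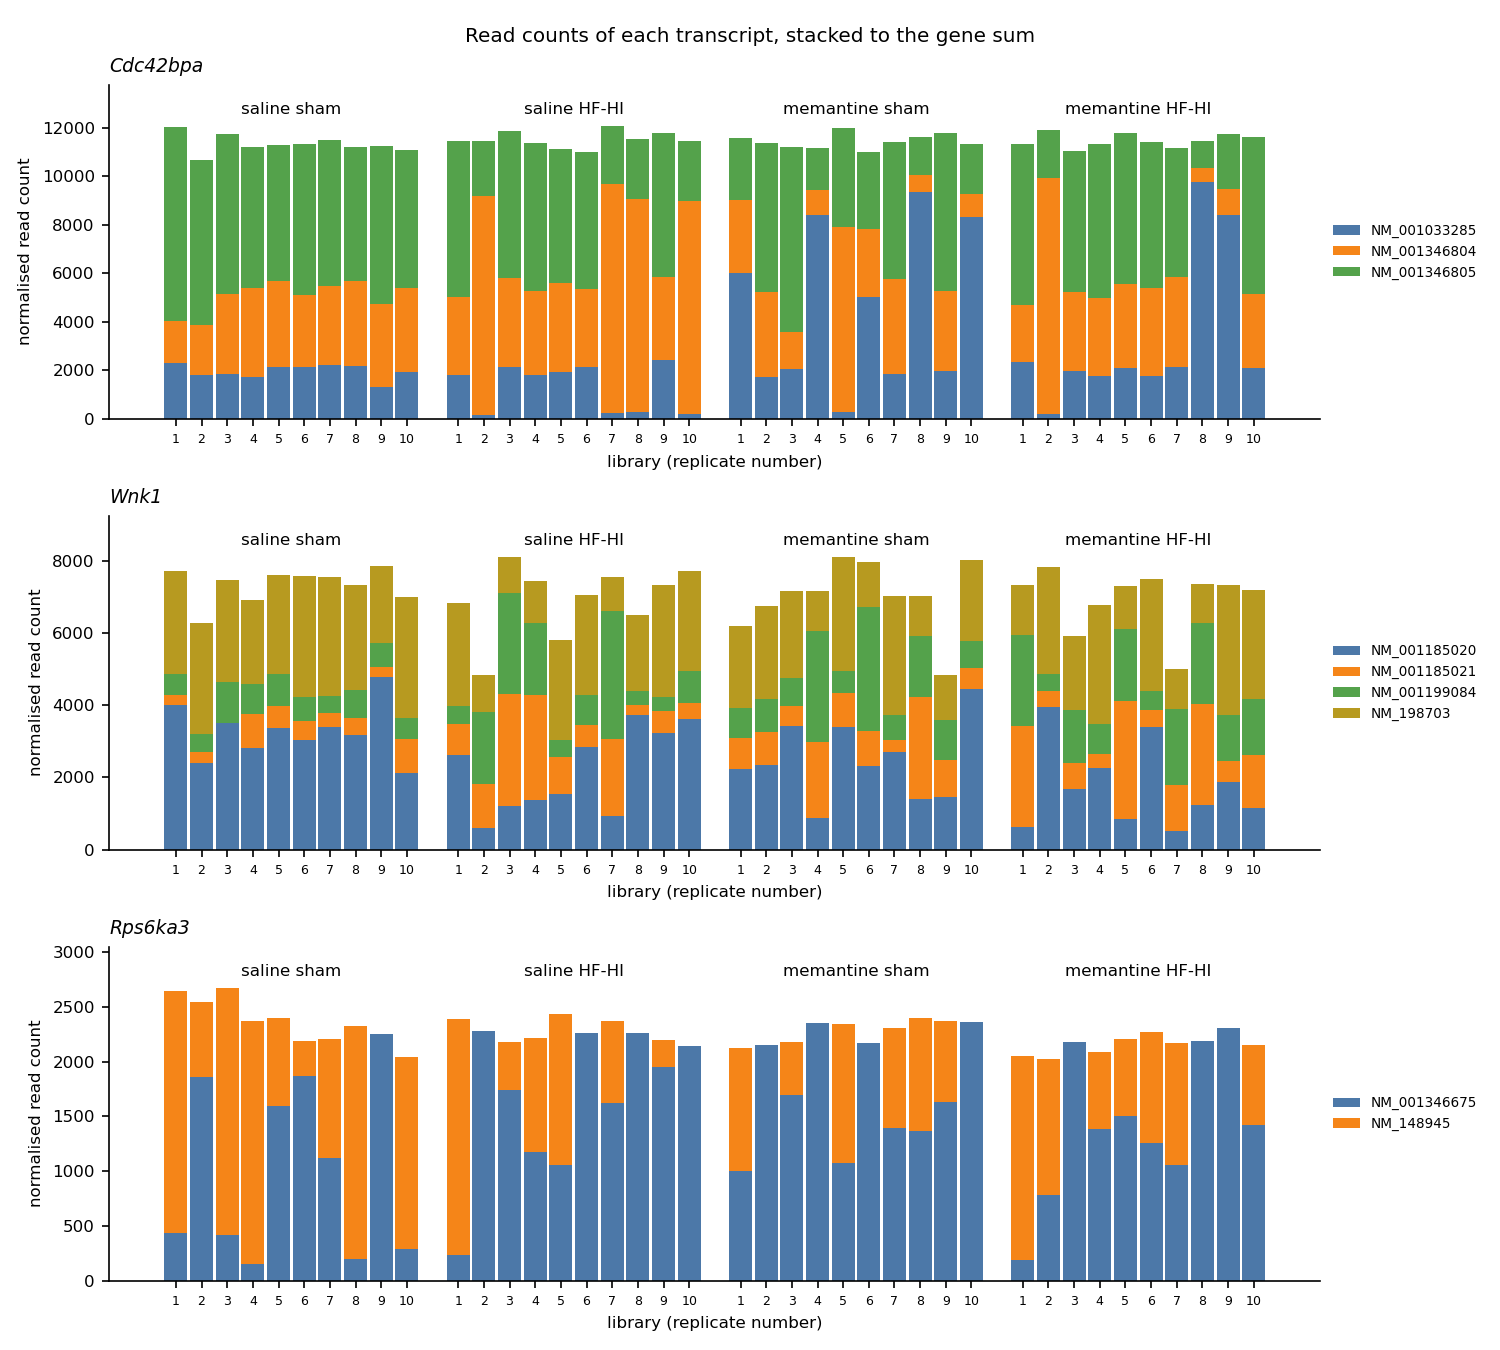
Normalised read counts of each transcript of Cdc42bpa, Wnk1 and Rps6ka3 (vertical axis), stacked to the gene sum, in each of the 40 libraries (horizontal axis, replicate number within group). The height of the Cdc42bpa bars hardly varies while the colours change places, and 12 Rps6ka3 bars hold a single transcript. The Wnk1 bars of saline sham, a group used to choose the gene, look more alike than those of the other groups, which was not tested.

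The share of NM_001346804, the transcript for which Cdc42bpa was chosen, was lowest, median and highest at 14.4%, 29.3% and 32.9% in saline sham. In saline HF-HI it was 28.1%, 32.1% and 78.6%. It was 6.06%, 25.8% and 63.7% in memantine sham and 5.10%, 28.8% and 81.8% in memantine HF-HI. The medians of the 4 groups lay close together, and the means differed through the few libraries in the shifted state. In memantine HF-HI against memantine sham, the comparison that the choice of Cdc42bpa did not use, the mean share differed by 5.0 percentage points (SE 8.49; two-sided permutation test p = 0.573, adjusted over the 6 genes so tested p = 0.628). The sign of this difference rested on memantine HF-HI replicate 2, without which the means were 23.8% and 24.6%, a difference of -0.8 points. Of the 10 memantine HF-HI libraries, 7 exceeded the mean of memantine sham. The exons that set NM_001346804 and NM_001346805 apart were not analysed here, since the annotation used did not link them to a gene model.

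Rps6ka3 (chrX:159255665-159368244) encodes RSK2, a kinase downstream of ERK that phosphorylates transcription factors such as CREB. It had the most variable shares of the 10 genes, with an SD inside groups of 30.0 percentage points, and ranked 14 of 718. NM_148945 had no read in 12 libraries, of which 3 were memantine HF-HI, 4 memantine sham, 4 saline HF-HI and 1 saline sham. With 1999 to 2581 reads on the gene in these libraries, a count of 0 would allow a share of up to 0.116% to 0.150% if every read told the transcripts apart. The limit is higher where reads are shared, and it covers counting error only. In 7 other libraries, 5 of them saline sham, the same transcript made up at least 83.5% of the sum.

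The share of NM_148945 was lowest, median and highest at 0%, 66.3% and 93.5% in saline sham and at 0%, 15.8% and 90.2% in saline HF-HI. It was 0%, 26.5% and 54.1% in memantine sham and 0%, 33.6% and 90.8% in memantine HF-HI. Libraries without the transcript occurred in every group, and the ranges overlapped throughout. The gene sum was far steadier, from 2164 ± 88.9 in memantine HF-HI to 2365 ± 206 in saline sham. Between the memantine groups the share differed by 10.5 points (SE 11.8; two-sided permutation test p = 0.382, adjusted p = 0.628), and by 4.24 points without memantine HF-HI replicate 1. The gene sum was 2164 in memantine HF-HI and 2275 in memantine sham, a change of -0.04 on the variance-stabilised log2 scale (SE 0.02; limma p = 0.0601, adjusted over all genes p = 0.961). That p passed 0.05 when some single libraries were left out, such as memantine sham replicate 1 (p = 0.0353) and memantine HF-HI replicate 9 (p = 0.0369), with adjusted p-values that stayed at 0.889 or more over the 6 such cases.

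Wnk1 (chr6:119923969-120038695, minus strand) encodes a kinase that senses chloride and osmotic stress and activates SPAK and OSR1, which set the direction of chloride transport in neurons. All 4 of its transcripts in the table share most exons. Among the GENCODE M21 models of these 4, NM_001199084 alone carries an exon of 1236 coding bases at chr6:119962397-119963632. NM_198703 alone carries one of 462 coding bases at chr6:119953771-119954232. Other Wnk1 transcripts were not compared. NM_001185021 has no coding base of its own, and it differs from NM_001185020 by an added block of 285 coding bases and a missing one of 84. The ends of the 2 private exons are shown because these exons set their transcripts apart among the 4. Reads on the exons were not counted here. The last 150 bases of the private exon are in capitals and the start of the next exon is in lower case. Both are in transcript orientation (GRCm38, chr6:119962397-119962546 and chr6:119953771-119953920 for the capitals).
NM_001199084: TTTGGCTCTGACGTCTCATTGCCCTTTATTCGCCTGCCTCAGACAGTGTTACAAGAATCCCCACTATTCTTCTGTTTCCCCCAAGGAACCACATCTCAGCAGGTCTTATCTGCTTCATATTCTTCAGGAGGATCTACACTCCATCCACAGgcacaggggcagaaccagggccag
NM_198703: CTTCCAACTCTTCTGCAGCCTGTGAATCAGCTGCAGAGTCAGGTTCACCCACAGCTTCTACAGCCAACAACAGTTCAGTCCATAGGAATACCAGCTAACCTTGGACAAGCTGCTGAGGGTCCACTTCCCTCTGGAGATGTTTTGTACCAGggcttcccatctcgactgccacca

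Saline sham stood out by its narrow spread, but it was one of the groups used to choose Wnk1, and the spread was not tested. The share of NM_001185021 was lowest, median and highest at 0%, 5.84% and 13.5% in saline sham and at 4.37%, 14.9% and 38.8% in saline HF-HI. It was 4.51%, 12.8% and 40.1% in memantine sham and 5.58%, 16.2% and 44.5% in memantine HF-HI. The SD was 4.24 percentage points in saline sham and 13.1, 11.1 and 15.3 points in the other groups. NM_001199084, with the private exon of 1236 bases, had the same form, from 9.65% ± 2.59 in saline sham to 22.3% ± 11.7 in memantine HF-HI, 19.9% ± 13.4 in memantine sham and 19.9% ± 15.9 in saline HF-HI. The highest share of either transcript in saline sham, 15.0%, was exceeded in 3 to 7 libraries per transcript in each other group.

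The shares that gave way were those of NM_001185020 and NM_198703. NM_001185020 averaged 44.2% ± 8.23 in saline sham and 24.6% ± 14.7 in memantine HF-HI, with 34.5% ± 12.7 in memantine sham and 31.2% ± 16.3 in saline HF-HI. NM_198703, with the exon of 462 bases, averaged 39.6% ± 6.75 in saline sham and 32.6% ± 13.3, 29.4% ± 11.2 and 30.2% ± 13.5 in memantine HF-HI, memantine sham and saline HF-HI. The gene sum was 7334 ± 473 in saline sham and 6960 ± 860, 7036 ± 980 and 6930 ± 984 in the same 3 groups, so its spread too was wider outside saline sham. The lowest sum was 6283 in saline sham and 5003, 4846 and 4853 in the others. One library, saline sham replicate 3, had no read of NM_001185021, which with 8423 reads on the gene would allow a share of up to 0.0356% if every read told the transcripts apart.

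In memantine HF-HI against memantine sham, the share of NM_001185021 differed by 4.37 points (SE 5.98; two-sided permutation test p = 0.471, adjusted p = 0.628), and 5 of 10 memantine HF-HI libraries were above the memantine sham mean. Leaving out single libraries gave 1.69 (without memantine HF-HI replicate 5) to 7.03 points (without memantine sham replicate 8). The smallest p among the 4 Wnk1 transcripts was that of NM_001185020. Its ratio to the other transcripts changed by -0.82 on the log2 scale (SE 0.43; limma p = 0.067, adjusted over 1674 isoform ratios p = 0.892), with 1754 against 2459 mean counts. Leaving out a single library brought that p under 0.05 in 5 cases, memantine sham replicate 4 (p = 0.0217) or 8 (p = 0.0438) and memantine HF-HI replicate 2 (p = 0.0217), 4 (p = 0.0489) or 6 (p = 0.0285), with adjusted p-values of 0.901 or more.

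Pak3 (chrX:143518366-143797796) encodes a p21-activated kinase of neurons that carries signals from RAC1 and CDC42 to dendritic spines. Its transcripts NM_001195046 and NM_001195048 both point to the same GENCODE model, with 1677 coding bases, so their split rests on differences that this annotation does not hold and is uncertain. The share of NM_001195046 was lowest, median and highest at 12.4%, 24.6% and 41.9% in saline sham and at 4.43%, 7.92% and 37.0% in saline HF-HI. It was 7.17%, 26.5% and 50.2% in memantine sham and 3.90%, 23.2% and 40.5% in memantine HF-HI. Most saline HF-HI libraries lay low, and all groups overlapped. Between the memantine groups the difference was -6.65 points (SE 6.13; two-sided permutation test p = 0.292, adjusted p = 0.628), and 3 of 10 memantine HF-HI libraries were above the memantine sham mean. Without memantine sham replicate 8 it was -4.15 points. The Pak3 gene sum averaged 4049 ± 347 in saline sham and 3696 ± 546, 3761 ± 333 and 3700 ± 361 in memantine HF-HI, memantine sham and saline HF-HI.

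Sirpa (chr2:129591042-129632228) encodes SIRP alpha, a surface receptor for CD47 that signals through the phosphatases SHP1 and SHP2 and is found on neurons and microglia. In the GENCODE models NM_001177647 lacks 2 blocks of 318 and 336 coding bases that the other Sirpa transcripts have. Its coding sequence is 873 bases long against 1527 in NM_007547. The whole models are 876 and 3982 bases long. The first holds almost nothing outside its coding sequence and may be incomplete. The lengths of the transcripts that the authors counted were not examined here. NM_001291019 and NM_007547 differ by 12 coding bases at the end of an exon (chr2:129627986-129627997), which are shown in capitals with their flanks because no other coding base separates them.
NM_001291019: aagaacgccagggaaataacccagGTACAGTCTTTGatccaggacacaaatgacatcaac

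The share of NM_001177647, with the shorter coding sequence, was split into separate low and high sets of 20 libraries each. It was 1.86% to 8.75% in the low set and 17.4% to 31.4% in the high set, with no library between. The high set held 6 memantine HF-HI libraries, 5 memantine sham, 2 saline HF-HI and 7 saline sham. The share was lowest, median and highest at 3.46%, 22.8% and 30.0% in saline sham, 1.86%, 5.29% and 22.6% in saline HF-HI, 2.97%, 13.8% and 26.7% in memantine sham, and 3.20%, 20.8% and 31.4% in memantine HF-HI.

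NM_007547 took the opposite course, with 69.7% ± 15.3 in memantine HF-HI, 71.7% ± 14.1 in memantine sham, 80.6% ± 10.2 in saline HF-HI and 66.9% ± 14.2 in saline sham. The share of NM_001291019 stayed within 6.68% to 19.6%. Between the memantine groups the share of NM_001177647 differed by 2.71 points (SE 4.71; two-sided permutation test p = 0.554, adjusted p = 0.628), and by 1.12 points without memantine HF-HI replicate 8 to 4.26 points without memantine HF-HI replicate 7. The Sirpa gene sum was 6606 ± 467 in memantine HF-HI and 6969 ± 550 in memantine sham, a change of -0.06 on the variance-stabilised log2 scale (SE 0.029; limma p = 0.0588, adjusted over all genes p = 0.961). Leaving out single libraries brought this p under 0.05 in 7 cases, the lowest without memantine sham replicate 1 (p = 0.0194), with adjusted p-values of 0.559 or more.

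**Figure D2:**
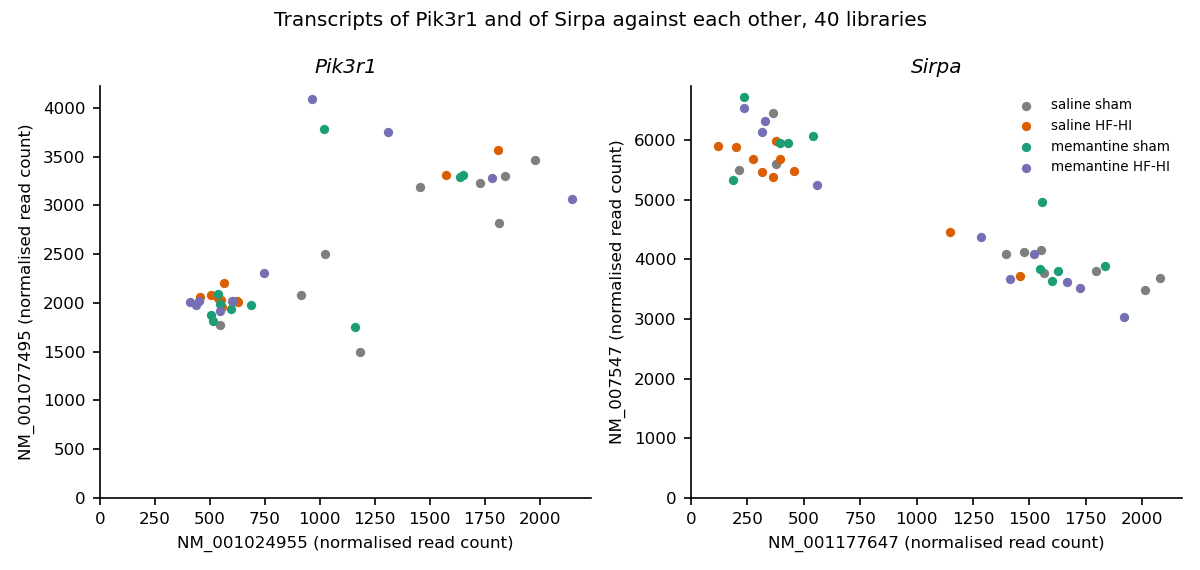
Normalised read counts of the 2 Pik3r1 transcripts against each other (left) and of Sirpa NM_001177647 against NM_007547 (right), 1 point per library, coloured by group. The Pik3r1 transcripts are low together or high together in most libraries, while the Sirpa points form 2 sets in which one transcript is high where the other is low.

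Across the 5 genes named from saline HF-HI against saline sham, the comparison of the memantine groups gave no call. Of their 14 transcripts, 0 had an unadjusted limma p under 0.05 by level, where 4.61% of all 6831 transcripts did, and 0 by isoform ratio, where 4.96% of 1674 did. The smallest unadjusted p-values were 0.0886 by level and 0.067 by ratio, and the adjusted ones were at least 0.967 and 0.892. Of the 5 gene sums, 0 passed, against 4.45% of 5849 symbols. The isoform ratio is the log2 of the count of a transcript plus 10 over the count of the other transcripts of its gene plus 10. The SEs reached 1.69 on that scale, for Rps6ka3, and a p above the threshold does not show that the groups were alike.

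The comparison that named these genes is given side by side with no test. From saline sham to saline HF-HI, the mean share of NM_001346804 of Cdc42bpa went from 27.4% to 49.1%, that of NM_001185021 of Wnk1 from 6.53% to 18.8%, that of NM_148945 of Rps6ka3 from 56.3% to 25.7%, that of NM_001177647 of Sirpa from 19.2% to 7.73% and that of NM_001195046 of Pak3 from 25.3% to 12.2%. From memantine sham to memantine HF-HI, the same shares went from 24.6% to 29.6%, 16.1% to 20.5%, 24.3% to 34.7%, 14.5% to 17.2% and 27.7% to 21.0%, where the Cdc42bpa value falls to 23.8% without memantine HF-HI replicate 2. Since these genes were picked for a large difference in the saline groups, that difference may be overestimated, and whether the response to HF-HI differed between drugs was not tested for them.

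**Figure D3:**
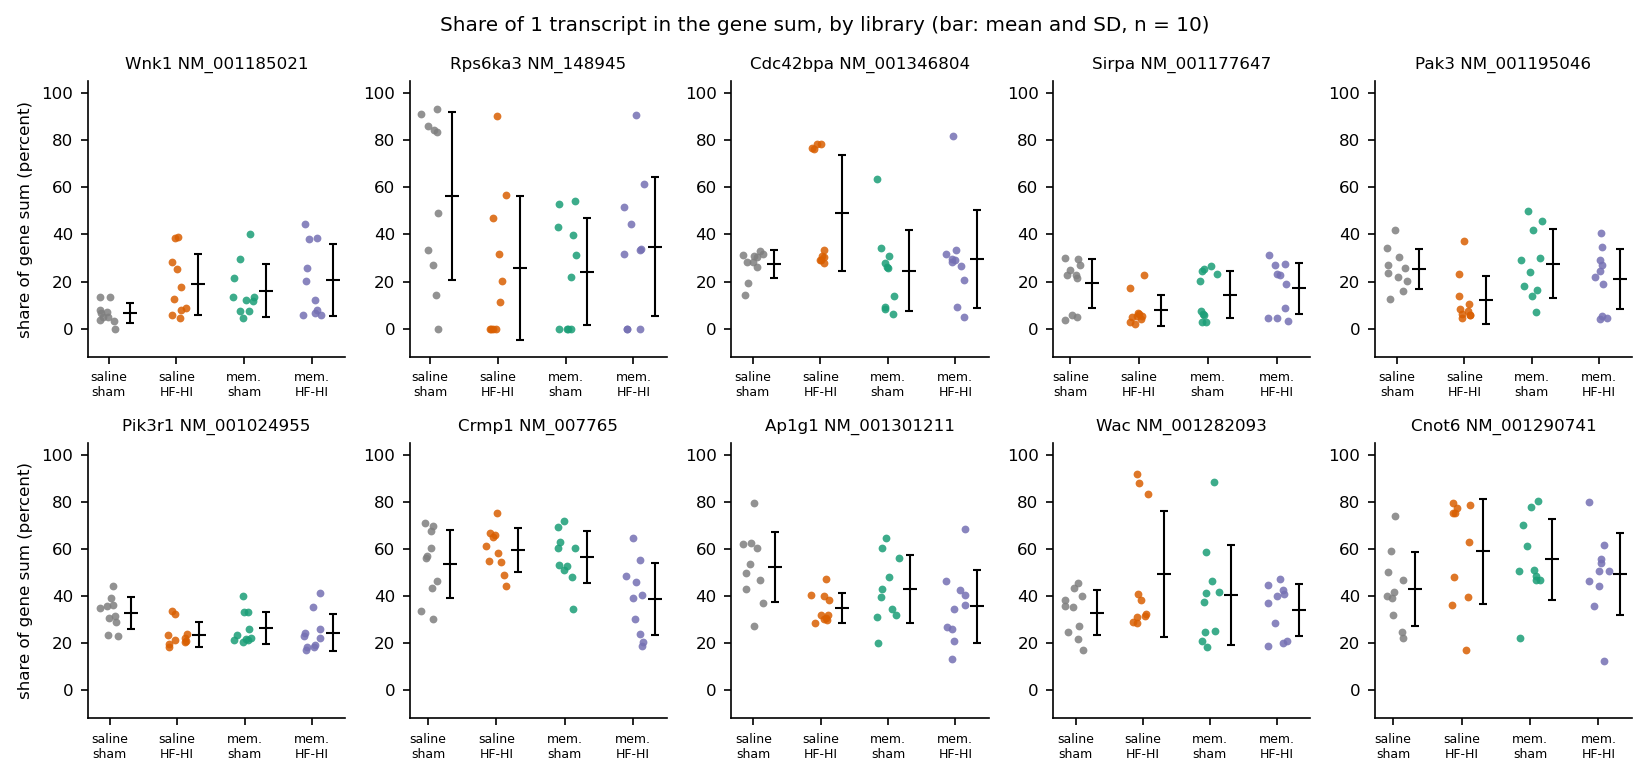
Share of 1 transcript of each gene in the gene sum (vertical axis, percent) in the saline and the memantine (mem.) groups, with 1 point per library and the mean and SD as a bar (n = 10). All groups overlap in every panel, Rps6ka3 has points at 0% in each group, and small sets of libraries lie far above the rest, 6 for Cdc42bpa and 4 for Wac.

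Crmp1 (chr5:37242058-37292163) encodes CRMP1, a cytosolic protein that binds microtubules and passes on semaphorin 3A signals in growing axons and dendrites. Its 2 transcripts start from different first exons. NM_001136058 has 381 private coding bases and NM_007765 has 39, after which both continue into the same exon. The private first coding bases are shown in capitals (the last 150 of them, chr5:37242376-37242525, for NM_001136058 and all 39, chr5:37246058-37246096, for NM_007765), followed in lower case by the shared exon, because they are where the encoded proteins part.
NM_001136058: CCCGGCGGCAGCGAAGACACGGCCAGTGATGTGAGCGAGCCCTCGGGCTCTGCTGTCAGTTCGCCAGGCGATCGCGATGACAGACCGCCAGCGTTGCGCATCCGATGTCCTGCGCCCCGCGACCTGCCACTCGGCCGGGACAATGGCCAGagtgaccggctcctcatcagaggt
NM_007765: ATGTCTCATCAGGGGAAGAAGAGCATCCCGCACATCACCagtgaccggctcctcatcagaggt

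The share of NM_007765 was lowest, median and highest at 30.3%, 56.6% and 71.1% in saline sham and at 44.2%, 59.7% and 75.3% in saline HF-HI. It was 34.5%, 56.8% and 71.9% in memantine sham and 18.8%, 39.8% and 64.4% in memantine HF-HI. Memantine HF-HI, one of the groups whose comparison named the gene, lay lowest and overlapped with the others. In the groups that the choice did not use, memantine sham and saline sham, the mean share was 56.4% and 53.6%, a difference of 2.83 points (SE 5.78; two-sided permutation test p = 0.628, adjusted p = 0.628), and 5 of 10 memantine sham libraries were above the saline sham mean. Leaving out single libraries gave 0.237 (without saline sham replicate 5) to 5.27 points (without memantine sham replicate 9). By limma, 0 of the 2 Crmp1 transcripts had an unadjusted p under 0.05 by level (smallest p = 0.595; 7.51% of all transcripts passed) or by ratio (p = 0.63; 5.26% passed). The gene sum, 1739 ± 103 in memantine sham and 1753 ± 149 in saline sham, gave p = 0.808 by limma, where 7.81% of all symbols had a p under 0.05.

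Pik3r1 (chr13:101680761-101768217, minus strand) encodes the regulatory subunits of PI 3-kinase. NM_001077495 stands for the long form p85 alpha and NM_001024955 for the short form p55 alpha, which starts at an internal promoter and has 106 private coding bases where p85 alpha has 916. The junctions at which the forms join the shared exon are shown, with the private bases in capitals and the shared ones in lower case (capitals at chr13:101692183-101692288 for p55 alpha and, for p85 alpha, its last private exon at chr13:101701447-101701526).
NM_001024955: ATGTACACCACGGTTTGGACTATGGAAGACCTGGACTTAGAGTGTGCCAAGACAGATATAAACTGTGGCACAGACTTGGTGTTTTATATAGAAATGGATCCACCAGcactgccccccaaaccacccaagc
NM_001077495: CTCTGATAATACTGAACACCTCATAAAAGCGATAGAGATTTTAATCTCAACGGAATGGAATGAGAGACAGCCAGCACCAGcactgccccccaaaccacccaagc

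Pik3r1 went against the description as isoform exchange. The variance of its gene sum inside groups was 1.74 times the summed variances of its transcripts, where a value under 1 means that transcripts moved against each other and a value above 1 that they moved together. The value was under 1 for the other 9 genes, from 0.00764 for Cdc42bpa to 0.383 for Cnot6. That is no mark of these genes, since 91.2% of the 718 genes were under 1, with a median of 0.288. The Pik3r1 gene sum fell into separate sets of 26 libraries at 2323 to 3525 counts and 14 libraries at 4629 to 5447. The upper set held 4 memantine HF-HI libraries, 3 memantine sham, 2 saline HF-HI and 5 saline sham. The coefficient of variation inside groups, 34.2%, ranked 10 of 718.

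The p85 alpha transcript was lowest, median and highest at 1493, 2658 and 3470 counts in saline sham and at 1956, 2053 and 3567 in saline HF-HI. It was 1756, 1982 and 3781 in memantine sham and 1913, 2165 and 4096 in memantine HF-HI. The share of the p55 alpha transcript was 22.9%, 33.1% and 44.2% in saline sham, 18.1%, 21.7% and 33.7% in saline HF-HI, 20.5%, 22.8% and 39.8% in memantine sham and 16.9%, 22.6% and 41.1% in memantine HF-HI. The median was highest in saline sham, where 8 libraries had at least 29.1%, against 2, 3 and 2 in the other groups. No test was made of this, because the choice of the gene may have used it.

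Ap1g1 (chr8:109778583-109864210) encodes gamma adaptin of the AP-1 complex, which sorts cargo into clathrin-coated vesicles between the Golgi and endosomes. Its transcripts differ in the coding sequence by a single exon of 9 bases, present in NM_009677 and absent from NM_001301211, shown in capitals with its flanks (chr8:109830613-109830621).
NM_009677: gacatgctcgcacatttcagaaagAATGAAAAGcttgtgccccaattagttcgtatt

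The Ap1g1 models are 3692 bases long for NM_001301211 and 6899 for NM_009677, with 2466 and 2475 coding bases. They thus differ mostly outside the coding sequence, and the share does not measure the exon of 9 bases alone. The share of NM_001301211, without this exon, was lowest, median and highest at 27.1%, 51.6% and 79.5% in saline sham. In saline HF-HI it was 28.5%, 31.9% and 47.4%. It was 19.8%, 41.2% and 64.7% in memantine sham and 13.0%, 35.4% and 68.5% in memantine HF-HI. Saline HF-HI was the tightest group, with an SD of 6.26 percentage points against 14.3 to 15.5 in the other groups. The gene sum hardly moved, from 2822 ± 82.7 in saline HF-HI to 2879 ± 120 in memantine sham, and its coefficient of variation, 3.13%, ranked 686 of 718.

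Wac encodes an adaptor for ubiquitylation of histone H2B. In the GENCODE models NM_153085 has 1938 coding bases and NM_001282093 has 1803. The first 41 coding bases of NM_153085 lie in no exon of NM_001282093. The models are 5208 and 3070 bases long, so they also differ outside the coding sequence. The share of NM_001282093 of Wac was lowest, median and highest at 17.1%, 35.6% and 45.3% in saline sham and at 28.4%, 35.3% and 92.0% in saline HF-HI. It was 18.4%, 39.5% and 88.5% in memantine sham and 18.8%, 38.5% and 47.2% in memantine HF-HI. In 36 libraries the share was at most 58.6%, and in 4, which were saline HF-HI replicates 3, 7 and 9 and memantine sham replicate 2, it was at least 83.5%. The medians differed little, and the means of 49.5% in saline HF-HI and 32.9% in saline sham differed through those libraries. The gene sum ran from 1875 ± 86.2 in saline HF-HI to 1901 ± 135 in memantine sham.

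Cnot6 (chr11:49671497-49713401, minus strand) encodes a deadenylase of the CCR4-NOT complex, which shortens poly(A) tails. NM_001290741 carries 15 coding bases at the end of an exon (chr11:49685248-49685262) that NM_212484 lacks, shown in capitals.
NM_001290741: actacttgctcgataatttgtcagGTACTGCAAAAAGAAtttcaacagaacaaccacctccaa

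The Cnot6 models are 5736 bases long for NM_001290741 and 2498 for NM_212484, with 1671 and 1656 coding bases. They thus differ mostly outside the coding sequence, and the share does not measure the 15 coding bases alone. The share of NM_001290741 of Cnot6 was lowest, median and highest at 22.0%, 40.8% and 74.2% in saline sham. In saline HF-HI it was 17.2%, 69.0% and 79.6%. It was 22.3%, 50.7% and 80.2% in memantine sham and 12.4%, 50.6% and 79.9% in memantine HF-HI. At least 70.0% was reached in 5 saline HF-HI libraries, 3 memantine sham libraries and 1 library of each other group. Unlike most of the 10 genes, Cnot6 also varied in its gene sum, which lay at 1142 to 1376 counts in 13 libraries and at 1643 to 1964 in 27. The lower set held 1 memantine HF-HI library, 5 memantine sham, 5 saline HF-HI and 2 saline sham.

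**Figure D4:**
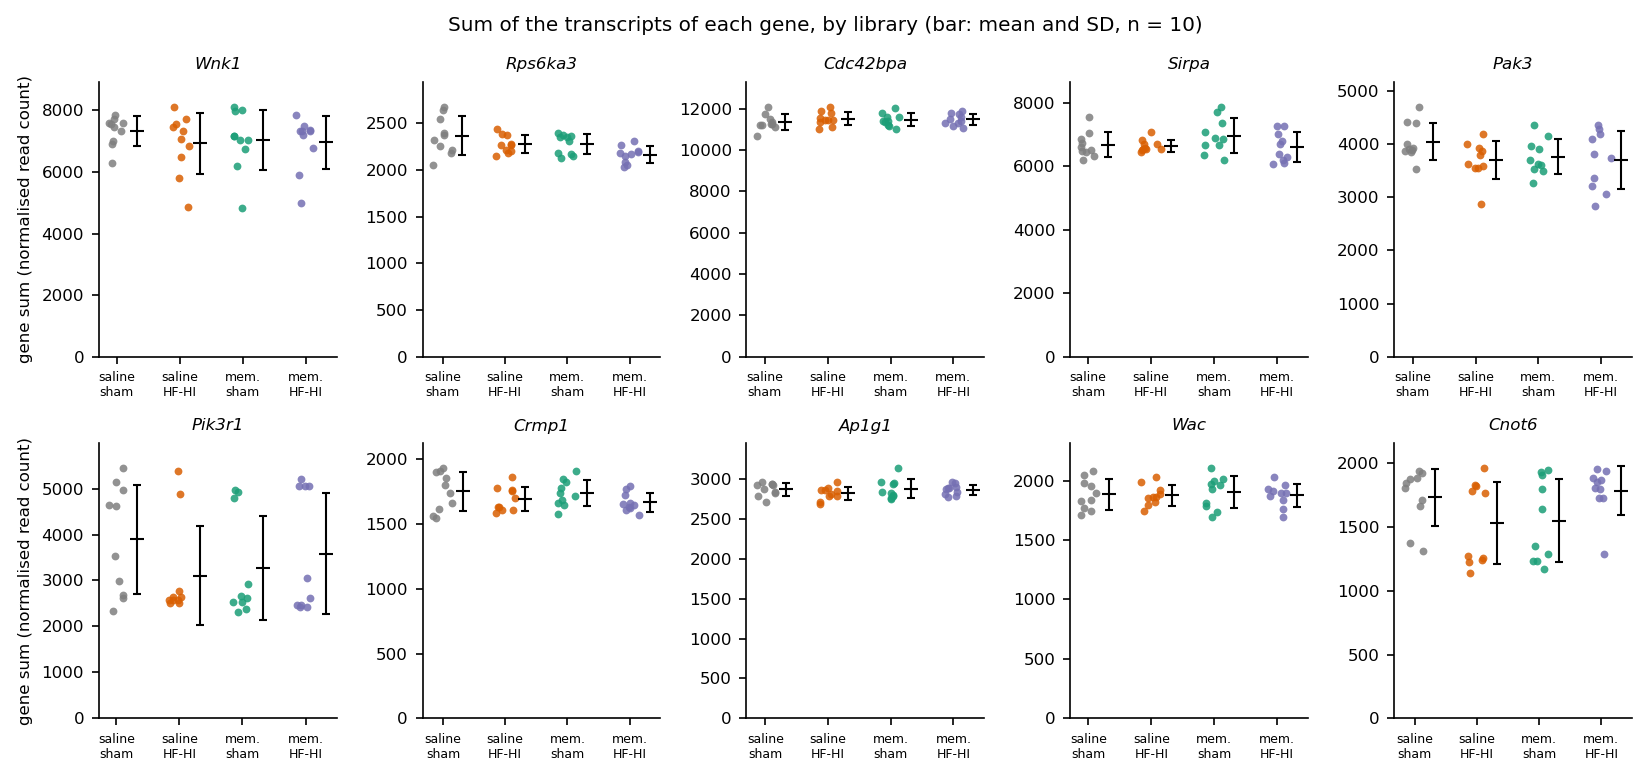
Summed normalised read count of the transcripts of each gene in the table (vertical axis, from 0) by group (mem., memantine), with 1 point per library and the mean and SD as a bar (n = 10). Cdc42bpa and Ap1g1 are nearly level, while Pik3r1 and Cnot6 fall into a lower and an upper set of libraries that both occur in every group.

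Measured inside groups, the most variable share of each gene had an SD of 6.73 percentage points for Pik3r1 to 30.0 points for Rps6ka3. Ranks among 718 genes were 14 for Rps6ka3, 52 for Cdc42bpa, 70 for Wac, 75 for Cnot6 and 153 to 211 for Sirpa, Wnk1, Ap1g1, Crmp1 and Pak3, and Pik3r1 ranked 489. The median SD was 13.5 points over the 10 genes and 8.80 over all 718. These SDs hold the differences between mice and any error in the division of shared reads, which were not separated. The 5 other genes with the most variable shares were Lpin2 (SD 49.5 points), Speg (46.2), Atp5pb (44.1), Pls3 (38.0) and Sp3 (37.3).

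**Figure D5:**
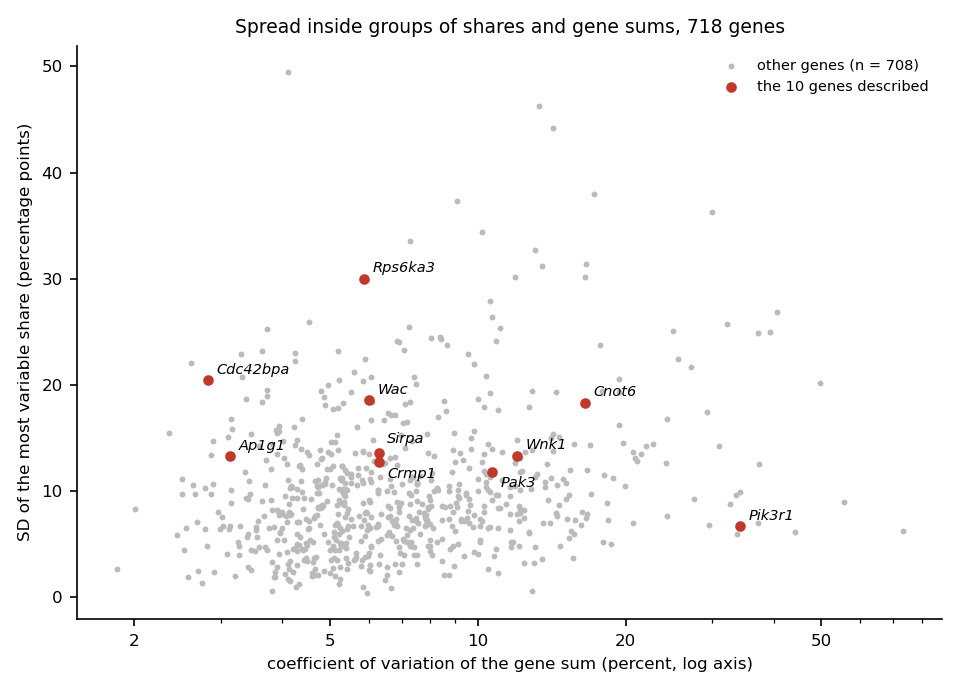
SD inside groups of the most variable transcript share (vertical axis, percentage points) against the coefficient of variation of the gene sum inside groups (horizontal axis, percent, log scale) for the 718 genes with at least 2 transcripts in the table. Rps6ka3 and Cdc42bpa lie high with steady sums, and Pik3r1 lies low with one of the most variable sums, at 34.2%.

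Whether the same libraries were shifted in several genes was examined in the 6 genes whose leading shares did not fall into separate sets, Wnk1, Pak3, Pik3r1, Crmp1, Ap1g1 and Cnot6. Over 40 libraries, after removal of group means, the 15 pairs gave Pearson's r from -0.344 to 0.379. The highest was between NM_001185021 of Wnk1 and NM_007765 of Crmp1 (r = 0.379, permutation p = 0.0182, adjusted over 15 pairs p = 0.273; Spearman's rho = 0.398, p = 0.0124, adjusted p = 0.185). Without the 2 libraries farthest from the median Wnk1 share it was 0.333. The lowest was between Pik3r1 and Ap1g1 (r = -0.344, permutation p = 0.0489, adjusted p = 0.367). Spearman's rho for this pair was -0.323 (permutation p = 0.0586, adjusted p = 0.439). Its r was -0.292 without the 2 libraries farthest from the median Pik3r1 share. None of the 15 pairs passed an adjusted p of 0.1, while 2 had an unadjusted p under 0.05.

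The partners of these genes were examined as gene sums over 9 lists, of which 82 of 103 genes were in the table. In saline HF-HI against saline sham, 6 were higher and 6 lower at an unadjusted limma p under 0.05, or 14.6%, against 10.7% of all 5849 symbols, and the median change of -0.0025 on the variance-stabilised log2 scale was near 0. No partner reached an adjusted p of 0.1 in any of the 4 comparisons. In the WNK and chloride transport list 2 of 9 genes were higher and 1 lower, in the CCR4-NOT list 1 of 10 was higher and 2 lower, and in each of the other 7 lists 0 to 2 genes passed. Tob1, which recruits the CCR4-NOT deadenylases, had 597 ± 50.9 counts in saline HF-HI and 530 ± 31.0 in saline sham (limma p = 0.00107, adjusted p = 0.142; above the sham mean in 9 of 10 libraries). Nedd4l, a ubiquitin ligase of the WNK pathway, had 4238 ± 114 and 4533 ± 200 (limma p = 0.0029, adjusted p = 0.207; below the sham mean in 10 of 10). Pak7, a p21-activated kinase, had 1678 ± 183 and 1511 ± 81.4 (limma p = 0.0038, adjusted p = 0.212; above it in 7 of 10).

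Among the memantine groups, 1 of the 82 partners had an unadjusted p under 0.05, or 1.22%, where 4.45% of all symbols did. That was Cfl1, the actin-severing protein cofilin downstream of PAK and LIMK, with 6110 ± 173 counts in memantine HF-HI and 6308 ± 167 in memantine sham (limma p = 0.033, adjusted p = 0.961; below the sham mean in 8 of 10). Pak7 (p = 0.0601) and Pik3r4 (p = 0.072), the next by limma p, had adjusted p-values of 0.961 as well. Between the HF-HI groups given memantine and saline, 1 partner passed, again 1.22%, against 3.5% of all symbols. It was Cnot1, the scaffold of the CCR4-NOT complex, with 4335 ± 143 and 4044 ± 314 counts (limma p = 0.00372, adjusted p = 0.998; above the saline HF-HI mean in 10 of 10). One Cnot1 transcript was known from earlier results to be higher in these same libraries, so this p is not independent of them. Cfl1 (p = 0.072) and Dpysl3 (p = 0.0687), a relative of Crmp1, came next in this limma comparison with adjusted p-values of 0.998.

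In memantine sham against saline sham, 3 of the 82 partners had an unadjusted p under 0.05, or 3.66%, where 7.81% of all symbols did. Ap2b1, a large adaptin subunit, had 8114 ± 187 counts in memantine sham and 8477 ± 238 in saline sham (limma p = 0.00122, adjusted p = 0.328; below the saline mean in 10 of 10). Tob1 had 575 ± 32.7 and 530 ± 31.0 (limma p = 0.02, adjusted p = 0.577; above the saline mean in 9 of 10). These comparisons share groups of libraries with one another, so their calls are not independent.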

How the data were processed

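RNA of 40 cortex libraries, 10 per group by the labels, had been sequenced by the authors as rRNA-depleted stranded total RNA. In the study's methods reads were aligned to mm10 with STAR and counted per transcript with eXpress, which divides reads that fit several transcripts by estimate, whereas the submitters' processing notes name HISAT2, StringTie and mm10, and which of these made the table is not known. The deposited values were DESeq2 variance-stabilised log2 values made by the authors. They were inverted with their floor, 10.36 (a count of 0), to normalised counts, and 100% of values under 5000 were whole multiples of 1 over the size factor within 0.02 reads. A share is the count of a transcript over the gene sum, with no correction for transcript length. It carries any error of the authors' division of shared reads between overlapping transcripts. This holds for every share reported.

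Symbols came from RefSeq (GRCm38), for 99.62% of transcripts, and exons and sequences from GENCODE M21 (GRCm38). Groups were compared with limma 3.58.1 (R 4.3.3), with a trend in the variance prior, a term per group and no covariate, fitted over all 6831 transcripts, 1674 isoform ratios or 5849 gene sums, with Benjamini-Hochberg adjustment. Calls used an unadjusted p under 0.05, with an adjusted p of 0.1 beside it. Ratios had a pseudocount of 10. Mean shares were compared by two-sided permutation with 100000 resamples, and correlations by permutation within groups, in Python 3.11.15. Shares were taken to fall into separate sets where a gap of at least 0.25 of the range left 3 or more libraries on each side or where 3 or more libraries were at 0, a rule chosen after the data were seen. The limma code was tested on simulated data.

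The genes, the partner and marker lists and the leading transcripts (those named earlier or, for the other 4 genes, the one with the widest share) were chosen with earlier results of these data known. Of the partner genes, those with an adjusted p under 0.1, or else the 3 with the smallest p in each comparison, were named, and of other genes the 5 with the largest SD of a share. One partner gene that this rule names is not reported here. The alternatives were a replicate block, only the compared groups in the fit, a mean count of at least 1000, median centring, robust eBayes, other pseudocounts and scales, and leaving out each library. Replicate numbers did not pair the samples: of 10 same-numbered pairs, at most 2 had correlated deviations above 0.1. Nothing says that libraries came from separate litters or days.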

Additional observations from a re-analysis of the deposited data

Results flagged for a closer look

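Of 80 sets of 10 libraries examined (the leading share and the gene sum of 10 genes in 4 groups), 4 held a library whose distance to its nearest neighbour was a larger part of the range of its group than Dixon's critical value allows. Chance alone flags about 1 in 20 groups. The share of NM_001346804 of Cdc42bpa was 63.7% in memantine sham replicate 5, where the other libraries ran from 6.06% to 34.2%, and 81.8% in memantine HF-HI replicate 2, where the others ran from 5.10% to 33.5%. The Pak3 gene sum was 2875 counts in saline HF-HI replicate 10, against 3541 to 4196 in the others. The Cnot6 gene sum was 1286 counts in memantine HF-HI replicate 5, against 1725 to 1953 in the others.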

How the results depend on the processing

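In memantine HF-HI against memantine sham, the number of the 14 transcripts of 5 genes with an unadjusted p under 0.05 was 0 by level and by ratio, and leaving out each library gave 0 to 1 for both. NM_001185020 of Wnk1 was the transcript that passed. The number of the 5 gene sums was 0, was 1 with only the compared groups in the fit (Rps6ka3), and was 0 to 2 without single libraries. The gene sums that passed were Rps6ka3 without memantine sham replicate 1, 2, 3 or 6 or memantine HF-HI replicate 6 or 9, and Sirpa without memantine sham replicate 1, 5, 6 or 9 or memantine HF-HI replicate 3, 7 or 9. All adjusted p-values in these fits were 0.559 or more, and the cause was not tested. The sign of gene sum changes near 0 turned on single libraries, with log2 changes of -0.0526 to 0.0277 for Wnk1, -0.00338 to 0.00838 for Cdc42bpa, -0.0387 to 0.00478 for Pak3 and, in memantine sham against saline sham, -0.0144 to 0.00329 for Crmp1. For Crmp1, and for the permutation tests of shares, the count stayed at 0 under every alternative run. Of the 6 differences in mean share so tested, that of Cdc42bpa turned sign without 1 library, with a range of -0.8 to 9.35 points.

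The replicate block, which used numbers that are not shown to pair the samples, gave 2 partner genes in place of 1 in memantine HF-HI against memantine sham, and 0 members there by level, ratio and gene sum, 0 for Crmp1, 0 shares and 0 correlated pairs. For the partner genes it gave 12, 1 and 4 in the other comparisons. Of 681 values under alternatives, 631 kept their direction and their side of the threshold. With and without median centring, the median change over all features lay between -0.003485 (isoform ratios) and 0.003019 (transcript levels). Both values were from memantine HF-HI against memantine sham, with centring.

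If every read told the transcripts apart, counting error would give a median SD of 0.862 points over the 10 genes, where 13.5 was observed. Over all 718 genes the medians were 0.786 and 8.80 points. How far depth limits the shares beyond this was not tested, since few reads tell some of the transcripts apart. Transcripts that are not in the table, and the division of reads between overlapping transcripts, were not analysed here.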
